A study of Mus musculus with 6 samples.

Results

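The replication-dependent histone genes were represented by 34 of the 27962 gene names on the array, chosen because the name began with Hist1h, Hist2h, Hist3h or Hist4h. They were read by 44 of the 41174 noncontrol probes, 8 for H1, 15 for H2a, 10 for H2b, 3 for H3 and 8 for H4. Heart RNA came from male mice of the inbred C57BL/6 strain that had lost both adrenal glands (ADX, n = 3) or had been sham-operated (sham, n = 3) at 1 month of age. Hearts were taken 6 months later; since a further label gives an age of 6 months, the exact age of the animals at that time is not settled. Adrenalectomy removes the main source of corticosterone and aldosterone, and the labels name no hormone replacement and no other allele or agent in either group. Each heart was hybridised to its own Agilent 1-colour array of 60-base probes, and the design text calls the arrays biological replicates.

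Replication-dependent histones package newly made DNA. Core histones H2a, H2b, H3 and H4 form the octamer around which DNA is wound, and linker histone H1 binds where the DNA enters and leaves it. Their mRNAs are made in bulk in S phase, come from many near-identical genes lying in clusters, and end in a conserved stem-loop in place of a poly(A) tail. Most cardiomyocytes of the adult mouse heart no longer divide, and replacement histones, which are made outside S phase from genes with poly(A) tails, supply much of the chromatin of such cells.

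Many of these probes cannot be tied to a single gene, because the coding sequences of the copies are so alike. Of the 44 probes, 18 were listed by the array's annotation with more than 1 RefSeq transcript or shared a run of at least 20 bases with another histone probe, 19 were listed with a single RefSeq gene and shared no such run, and 7 were listed with no RefSeq transcript. The following pairs show how far the sharing went, in the array's own probe sequences (5′ to 3′), with the longest run common to the pair in capitals.
Hist1h2bk, H2b, chr13:21402048-21402107 (+): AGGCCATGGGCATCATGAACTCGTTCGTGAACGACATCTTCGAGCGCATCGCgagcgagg
Hist1h2bm, H2b, chr13:21088259-21088318 (+): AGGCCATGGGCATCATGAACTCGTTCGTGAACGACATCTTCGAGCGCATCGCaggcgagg
Hist1h2aa, H2a, chr13:23300592-23300651 (+): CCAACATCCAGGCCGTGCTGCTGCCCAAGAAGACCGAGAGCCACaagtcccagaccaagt
Hist1h2af, H2a, chr13:22900228-22900287 (+): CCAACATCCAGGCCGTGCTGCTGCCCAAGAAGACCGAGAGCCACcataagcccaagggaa
Hist1h4d, H4, chr13:22947598-22947657 (+): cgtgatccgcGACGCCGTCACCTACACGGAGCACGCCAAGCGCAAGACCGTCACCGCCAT
Hist1h4f, H4, chr13:22917373-22917432 (-): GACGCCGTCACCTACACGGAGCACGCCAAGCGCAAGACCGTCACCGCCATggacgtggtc
The H2b pair had 58 of 60 bases in common and a shared run of 52 bases, the H2a pair shared a run of 44 bases, and the H4 pair a run of 50 bases. Signal at such a probe therefore belongs to a group of copies, and a gene name below stands for the probe and not for the source of its RNA.

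A second H2a pair bears on the H2a result described further on, since its probes overlap in 40 bases and gave different values.
Hist1h2af, probe A_52_P498210, chr13:22899920-22899979 (+): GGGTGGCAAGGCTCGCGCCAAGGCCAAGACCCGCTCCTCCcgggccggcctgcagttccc
Hist1h2ak, probe A_52_P498208, chr13:21119757-21119816 (-): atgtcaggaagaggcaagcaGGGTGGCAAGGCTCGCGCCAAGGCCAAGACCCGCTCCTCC

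A few probes reached into the stem-loop itself, the element that marks this class of mRNA. The 16 letters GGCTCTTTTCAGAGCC, searched on both strands, were found in 1 of the 41174 probes (0.00243%), that of Hist1h3a. Their first 11 letters, GGCTCTTTTCA, were in the probes of Hist1h2ab and Hist1h3a among 4 probes on either strand, and their last 12, CTTTTCAGAGCC, in those of Hist1h2ae and Hist1h3a. These 3 searches overlap by construction. Windows of the 3 probes are shown with the matched letters in capitals.
Hist1h3a, from the probe at chr13:23127689-23127748 (-): attaaccaaaGGCTCTTTTCAGAGCCaca
Hist1h2ab, from the probe at chr13:23117325-23117384 (+): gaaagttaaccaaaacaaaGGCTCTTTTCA
Hist1h2ae, from the probe at chr13:22936613-22936672 (-): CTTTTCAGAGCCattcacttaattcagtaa
Of these 3, the Hist1h2ab probe alone was bright enough to be tested. How the amplification kit primed mRNA without a poly(A) tail is not given in the sources used here, and its effect on the histone signals was not tested.

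In the coordinates of the array design on the mm7 mouse assembly, the Hist1 probes lie on chromosome 13, the Hist2 probes on chromosome 3, the Hist3 probes on chromosome 11 and the Hist4 probes on chromosome 6. Without a gene annotation of that assembly, no exon or untranslated region is given for a probe. Some coordinates go against the gene name. The Hist1h1d probe A_52_P660466 and the Hist3h2a probe A_51_P441377 lie on the strand opposite to the other 2 probes of the same name. The clone named for that Hist3h2a probe is a RefSeq synonym of H2bu1-ps, an H2b pseudogene, and not of an H2a gene. The Hist1h4i probe A_51_P505521 is placed on chromosome 13 from 21406569 to 21406575, which covers 7 of its 60 bases.

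Most of the histone probes gave signal in the heart, though a shared probe does not show which copies were expressed. All 6 arrays were well above background at 35 of the 44 probes, no array at 7, and some arrays at 2. Of the 41174 noncontrol probes, 22156 were above background on all 6 arrays and could be fitted. The test took in each probe that cleared background on the 3 arrays of either group. This held for 36 histone probes with 30 gene names, and for 23993 of the 41174 noncontrol probes. By class, 7 of 8 H1, 12 of 15 H2a, 8 of 10 H2b, 2 of 3 H3 and 7 of 8 H4 probes were tested. All 18 probes of shared sequence were among them, against 15 of the 19 single-gene probes and 3 of the 7 without a RefSeq transcript. The 8 untested probes were 1 for Hist1h1d, Hist1h2ac, Hist1h2ae, 1 for Hist2h2aa2, 1 for Hist1h2bc, Hist1h2be, Hist1h3a and 1 for Hist4h4. The dim Hist4h4 probe A_51_P148860 had log2 levels of -6.74, -7.17 and -7.02 on the ADX arrays and -1.88, -5.00 and -6.56 on the sham arrays, and sham replicate 1 was the single array well above background. A log2 level is the log2 signal of a probe minus the log2 of the array's 75th percentile, so it ranks arrays for a probe but not probes against each other.

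Across arrays, 57.7% to 66.8% of spots were well above background, the 75th percentile ran from 644 to 924 intensity units, and log2 values of any 2 arrays correlated across probes at r of 0.980 to 0.990, where probes are not independent replicates. The sham arrays and ADX replicate 1 lay on slide 1 and ADX replicates 2 and 3 on slide 2, so a value with slide as a block sets ADX replicate 1 alone against the 3 sham arrays. As a check of the tissue, 7 of 7 cardiomyocyte markers (Myh6, Tnnt2, Tnni3, Actc1, Myl2, Ryr2 and Ttn) were well above background on every array. Sham replicate 3 gave the lowest value of the 6 arrays at 22 of the 36 tested histone probes and sham replicate 2 the highest at 14. A histone probe's log2 difference had a median standard error (SE) of 0.14, a precision set by the number of arrays. In whole-heart RNA, fewer cells of a type and less RNA per cell cannot be told apart.

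No histone probe passed the test between ADX and sham hearts. Over all 23993 tested probes, 0.00417% passed the limma threshold (adjusted p under 0.05 by the Benjamini-Hochberg method), which is 1 probe, that of the kallikrein gene Klk1b16, which was lower in ADX hearts. The smallest adjusted p among the 36 histone probes was 0.164 in limma. At an unadjusted p under 0.05, 7 histone probes (19.4%) were past the level, against 13.5% of all tested probes. Of the 7, 6 were higher in ADX hearts and 1 was lower, where 6.11% of all tested probes were higher and 7.39% lower. They came from the same 6 arrays and were the probes of Hist1h1b, Hist1h2ab, Hist1h2af (A_52_P498210), Hist1h2ba, Hist1h2bk (A_51_P182358) and Hist1h4i on the higher side and Hist2h2aa1 on the lower. Without sham replicate 3 the counts were 3 higher and 4 lower (19.4%), against 15.9% of all tested probes.

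Differences (ADX minus sham, log2) at the 36 probes ran from -0.38 to 0.59 with a median of -0.02, against a median of 0.03 over all tested probes. Without sham replicate 3 the histone median was -0.10. Differences were above 0 at 16 probes and below 0 at 20, while 55.1% of all tested probes were above 0. The groups did not overlap at 7 histone probes, 6 with ADX above and 1 with ADX below, where 10.2% and 9.35% of all tested probes separated in those directions. The 95% intervals of single probes reached at most from -0.77 to 1.14, so larger differences than these lay outside every interval at the tested probes. By class, the median was 0.23 for H1, -0.06 for H2a, 0.24 for H2b, -0.08 for H3 and -0.08 for H4. The H1 value includes a Hist1h1d probe that entered the test through the ADX arrays alone, and it was 0.11 over the H1 probes above background on all 6 arrays. By cluster it was 0.00 for Hist1 (24 probes), -0.14 for Hist2 (6 probes) and 0.00 for Hist3 (5 probes), and the single tested Hist4 probe stood at -0.10. Single-gene probes had a median of 0.02 and probes of shared sequence one of -0.06.

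**Figure D1:**
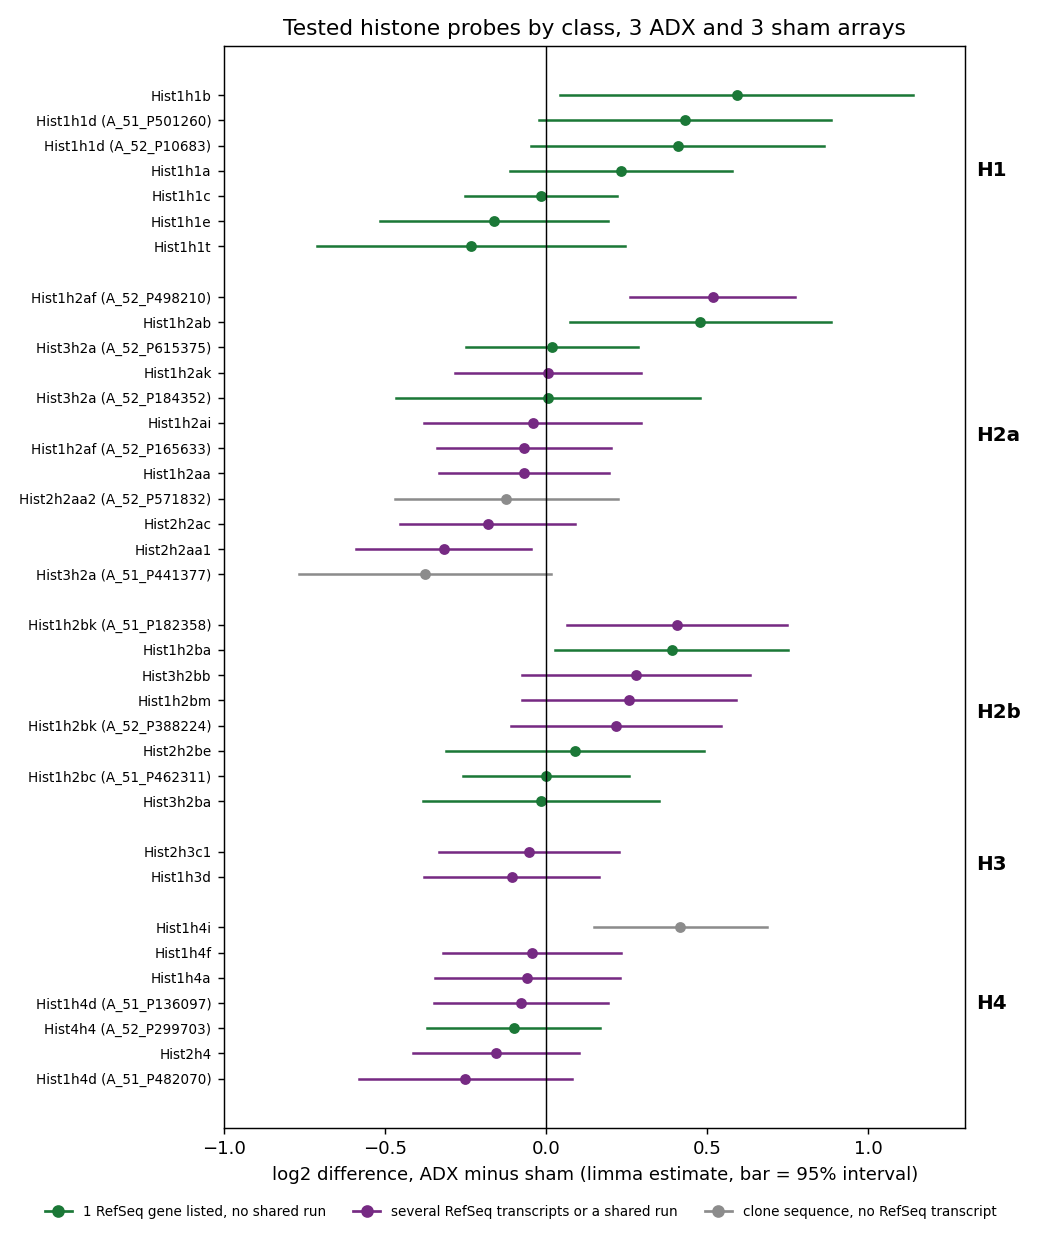
Log2 difference (ADX minus sham, horizontal axis) of each of the 36 tested histone probes, grouped by class, with the limma estimate as a point and its 95% interval as a bar; colour shows whether the array's annotation ties the probe to 1 gene. Points run from -0.38 (Hist3h2a, A_51_P441377) to 0.59 (Hist1h1b), and most bars cross 0.

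Linker histone differences ran from -0.23 to 0.59. Hist1h1b, a linker histone gene typical of dividing cells, had log2 levels of -2.87, -2.42 and -2.16 on the ADX arrays and -2.75, -3.05 and -3.42 on the sham arrays. ADX replicate 1 lay below sham replicate 1, so the groups overlapped. Its difference was 0.59 (SE 0.23, 1.51-fold), the largest of the 36, at a limma adjusted p of 0.341. Within slide 1 the difference was 0.21.

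Hist1h1d was read by probe A_51_P501260 on all 3 ADX arrays and on no sham array above background. Its log2 levels were -3.40, -3.65 and -3.98 on the ADX arrays and -3.98, -3.95 and -4.40 on the sham arrays, where it was not well above background. The fitted difference was 0.43, with a 95% interval of -0.02 to 0.88 and a limma adjusted p of 0.391. Its fold, 1.35, uses dim sham signals and is no firmer as a bound, because these signals lay above the lowest signal well above background on each sham array. The difference was 0.29 without ADX replicate 1, 0.28 without sham replicate 3 and 0.71 within slide 1. The second tested Hist1h1d probe, A_52_P10683, was above background on all arrays and differed by 0.41 (SE 0.19, limma adjusted p = 0.409).

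The linker histone probe of highest signal, that of Hist1h1c, an abundant linker histone of many tissues, showed almost the same value on every array. Levels were 4.0, 4.01 and 4.02 in ADX hearts and 4.06, 4.07 and 3.94 in sham hearts, a log2 difference of -0.02 with a 95% interval of -0.25 to 0.22 (limma adjusted p = 0.959). Hist1h1a had ADX values above all sham values, but barely, with -3.336 on ADX replicate 1 and -3.338 on sham replicate 2. Its difference was 0.23 (limma adjusted p = 0.527). Hist1h1e differed by -0.16, and Hist1h1t, a linker histone of the testis, by -0.23. Without sham replicate 3 the H1 median was 0.09, against 0.23 with all arrays. Both values include the Hist1h1d probe that entered the test through the ADX arrays alone.

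H2a probes held both the smallest p of the family and the one probe lower in ADX hearts at that level. Hist1h2af probe A_52_P498210 had log2 levels of 0.71, 0.75 and 0.82 on the ADX arrays and 0.29, 0.31 and 0.12 on the sham arrays. Every ADX array lay above every sham array, and the difference was 0.52 (SE 0.11, 1.43-fold, unadjusted p = 0.00198), at a limma adjusted p of 0.164. The overlapping Hist1h2ak probe printed above differed by 0.01 (SE 0.12, limma adjusted p = 0.990), with levels of 0.25, 0.15 and 0.41 in ADX hearts and 0.30, 0.36 and 0.13 in sham hearts. Between them these probes share 40 bases, and the remaining 20 bases lie on opposite sides of the shared run.

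A probe for the other end of Hist1h2af, A_52_P165633, did not show that separation either. Its levels were 5.39, 5.44 and 5.31 in ADX hearts and 5.51, 5.54 and 5.30 in sham hearts, a difference of -0.07 (SE 0.12, limma adjusted p = 0.827). It is listed with 2 RefSeq genes and its partner with 4, so the pair need not read the same copies. A test of the difference between the probes was not made.

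Hist2h2aa1, a core H2a gene of the chromosome 3 cluster, had levels of 1.02, 0.96 and 0.79 on the ADX arrays against 1.21, 1.33 and 1.18 on the sham arrays. All ADX values were below all sham values, at a difference of -0.32 (SE 0.11, limma adjusted p = 0.307). Hist1h2ab, whose probe ends within the stem-loop letters, had levels of -3.17, -2.71 and -2.66 in ADX hearts and -3.52, -3.21 and -3.25 in sham hearts. Here all ADX values were above all sham values, at a difference of 0.48 (SE 0.17) and a limma adjusted p of 0.307, but within slide 1 the difference was 0.15. The 3 Hist3h2a probes split, with A_52_P184352 at 0.00, A_52_P615375 at 0.02 and the opposite-strand probe A_51_P441377 at -0.38 (SE 0.17, limma adjusted p = 0.382). The last is the probe whose clone is a synonym of the H2b pseudogene H2bu1-ps, and the H2a median includes it.

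The H2b median was 0.24, and 6 of 8 tested H2b probes were above 0, where 55.1% of all tested probes were. The excess was uneven over the ADX arrays. Hist1h2bk probe A_51_P182358 had log2 levels of 2.22, 1.84 and 1.77 on the ADX arrays and 1.57, 1.58 and 1.46 on the sham arrays. The groups did not overlap, with a difference of 0.41 (SE 0.14, 1.33-fold) and a limma adjusted p of 0.306. Hist1h2ba, which encodes a testis-specific H2b, had levels of 2.43, 2.14 and 1.93 in ADX hearts against 1.82, 1.87 and 1.65 in sham hearts. These too did not overlap, at a difference of 0.39 (SE 0.15, 1.31-fold, limma adjusted p = 0.342).

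The Hist1h2ba probe is listed with a single gene, and the 2 probes share a run of 14 bases, in capitals.
Hist1h2bk, probe A_51_P182358, chr13:21401982-21402041 (+): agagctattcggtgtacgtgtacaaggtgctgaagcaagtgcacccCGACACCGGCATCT
Hist1h2ba, chr13:23299744-23299803 (-): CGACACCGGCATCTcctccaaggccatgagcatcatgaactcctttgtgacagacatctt
Against the second Hist1h2bk probe, Hist1h2ba matched in 35 of the 40 overlapping bases, with a longest run of 13. Whether the Hist1h2ba probe also took up RNA of other H2b copies was not tested.

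At 5 H2b probes (Hist1h2ba, both Hist1h2bk probes, Hist1h2bm and Hist3h2bb), ADX replicate 1 was the highest of the 6 arrays. Hist3h2bb matched the second Hist1h2bk probe in 55 of 58 overlapping bases and Hist1h2bm in 54 of 58. The 5 probes were grouped after their values were seen and are not independent readings. Measured from the sham mean, these probes stood 0.45 to 0.68 higher on ADX replicate 1, 0.15 to 0.36 on ADX replicate 2 and 0.04 to 0.23 on ADX replicate 3, while sham arrays lay between -0.16 and 0.10. Without ADX replicate 1 the H2b median was 0.12, Hist1h2bk (A_51_P182358) differed by 0.27 and Hist1h2ba by 0.26. The H1 median was then 0.26, with the Hist1h1d probe that entered the test through the ADX arrays alone. Within slide 1, where ADX replicate 1 is the sole ADX array, the H2b median was 0.47.

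The other 3 tested H2b probes stood nearer to 0. Hist1h2bc (A_51_P462311), the H2b probe of highest signal, had levels of 3.92, 3.82 and 3.76 in ADX hearts and 3.87, 3.91 and 3.73 in sham hearts. ADX replicate 1 was again the highest array, but the groups overlapped, with a 95% interval for the difference of -0.26 to 0.26 (limma adjusted p = 0.999). Hist2h2be differed by 0.09, and by 0.21 within slide 1, and Hist3h2ba differed by -0.02. The 4 H2b probes of shared sequence had a median difference of 0.27, all 4 above 0, and the 4 tied to a single gene one of 0.04, with 2 above 0.

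**Figure D2:**
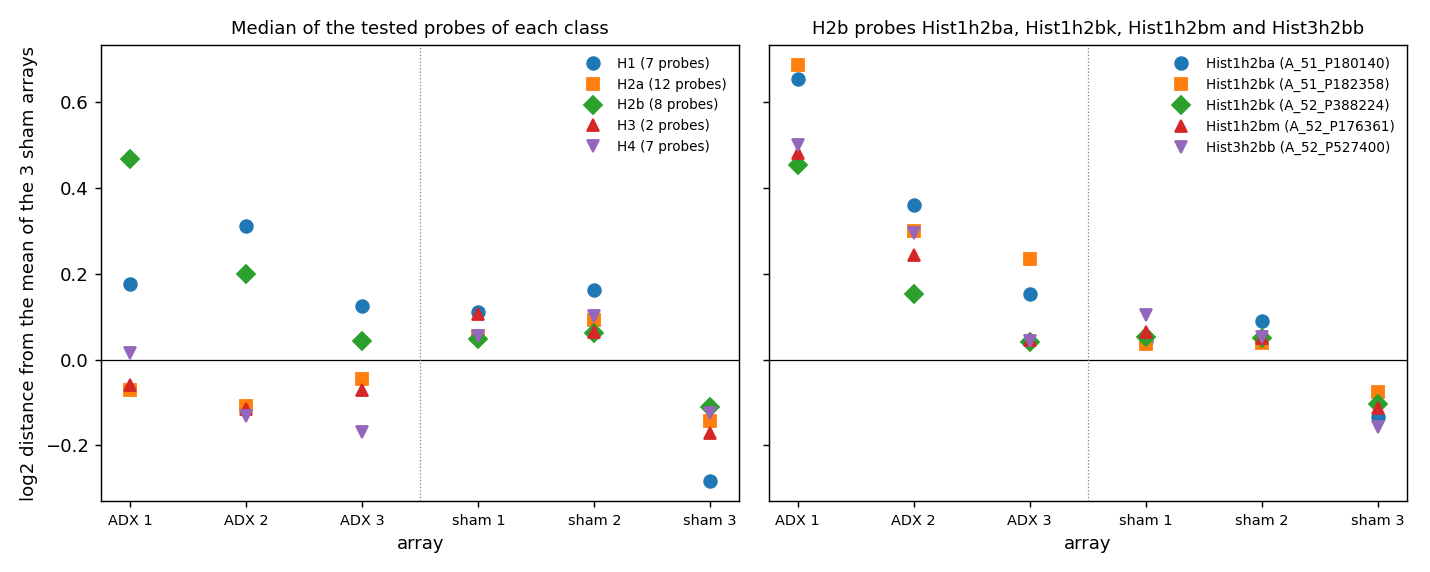
Distance of each array from the mean of the 3 sham arrays (log2, vertical axis), with ADX arrays left of the dotted line and sham arrays right of it; the left panel gives the median over the tested probes of each class and the right panel 5 H2b probes. ADX replicate 1 is highest at the 5 H2b probes (0.45 to 0.68), which were grouped after their values were seen. Sham replicate 3 lies lowest among the sham arrays.

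Both tested H3 probes were below 0, at -0.05 and -0.11. Hist1h3d had levels of 3.75, 3.64 and 3.68 in ADX hearts against 3.88, 3.87 and 3.64 in sham hearts, and the difference of -0.11 had a limma adjusted p of 0.717. Hist2h3c1 had levels of 4.21, 4.20 and 4.26 in ADX hearts against 4.41, 4.33 and 4.10 in sham hearts, a difference of -0.05 (limma adjusted p = 0.876). The groups overlapped at both probes, which are listed with 4 RefSeq transcripts.

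Among the H4 probes, 6 of 7 were below 0 and Hist1h4i stood above. Its levels were 0.55, 0.61 and 0.66 on the ADX arrays and 0.09, 0.34 and 0.14 on the sham arrays. Groups did not overlap, and the difference of 0.42 (SE 0.11, 1.33-fold, unadjusted p = 0.00808) had a limma adjusted p of 0.220. This is the probe whose listed coordinates cover 7 bases and whose annotation gives no RefSeq transcript, so its tie to Hist1h4i rests on the array's name alone.

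Hist1h4d probe A_51_P482070 had levels of 0.40, 0.41 and 0.50 in ADX hearts and 0.84, 0.80 and 0.42 in sham hearts. Sham replicate 3 lay among the ADX values, and the difference was -0.25 (SE 0.14, limma adjusted p = 0.475). The second Hist1h4d probe, A_51_P136097, differed by -0.08. Hist1h4f, the H4 probe of highest signal, shares a run of 50 bases with it and had levels of 4.81, 4.59 and 4.65 in ADX hearts against 4.75, 4.83 and 4.61 in sham hearts. The difference of -0.04 (limma adjusted p = 0.898) came with overlapping groups.

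**Figure D3:**
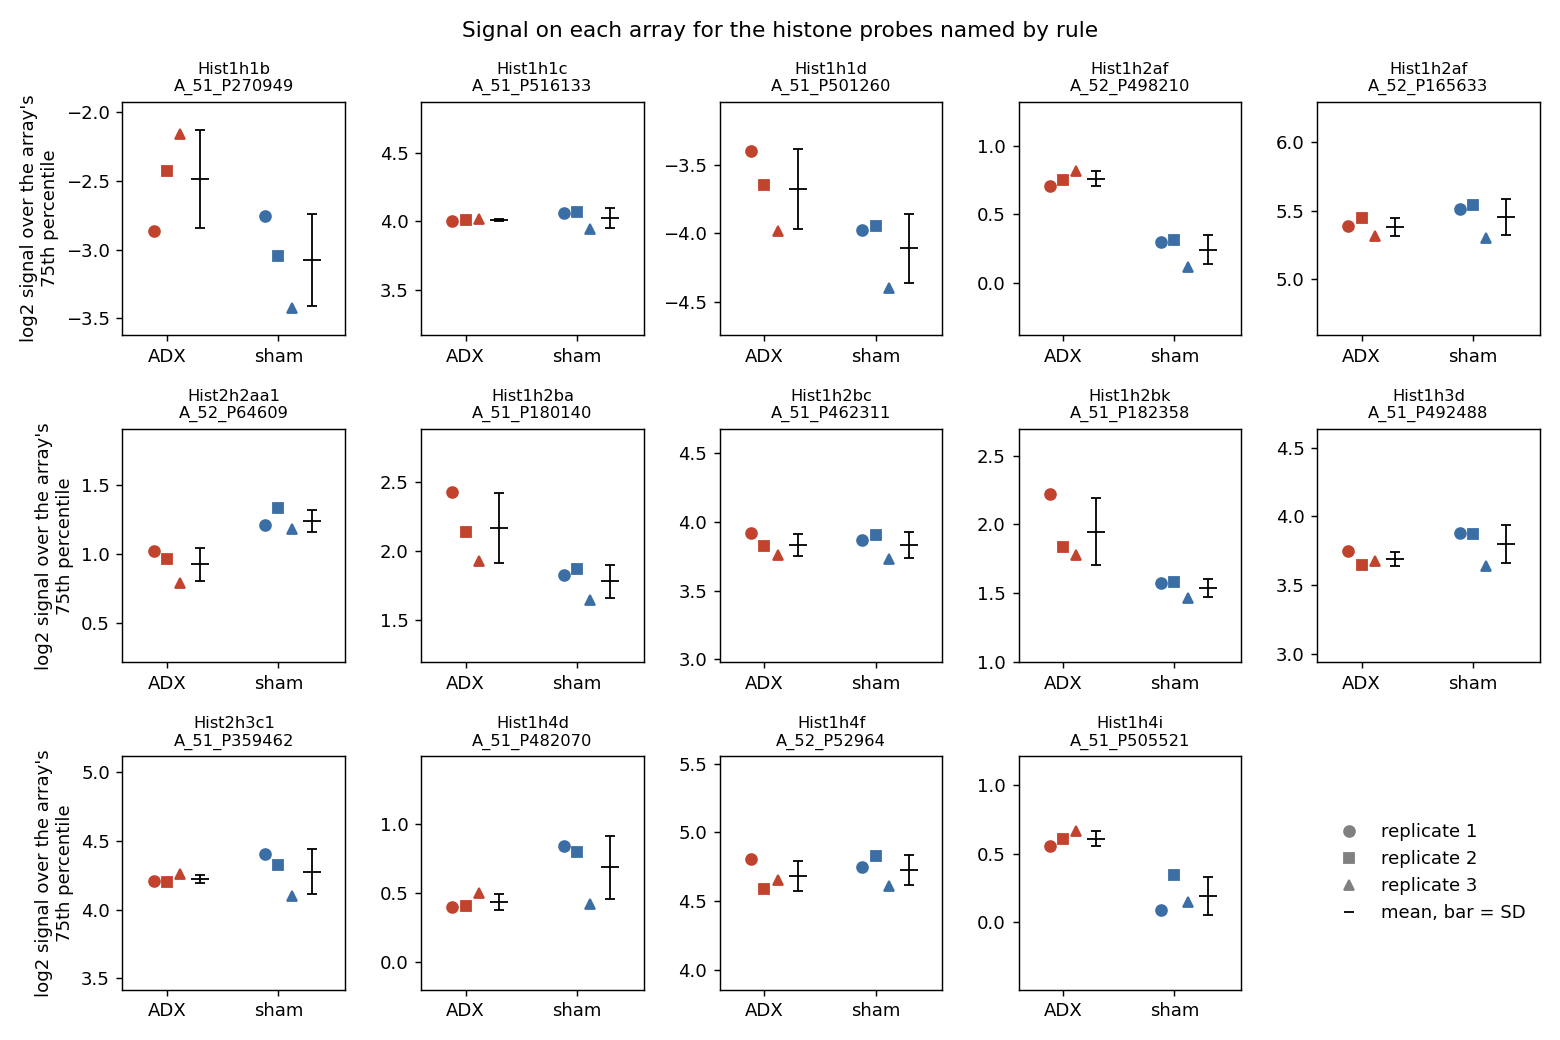
Log2 signal over each array's 75th percentile (vertical axes, all spanning the same range) for the 14 histone probes named by rule, ADX left and sham right, with symbols for the replicates and a bar for the mean and SD (n = 3 each). Hist1h2af (A_52_P498210), Hist1h2bk, Hist1h2ba and Hist1h4i have all ADX points above all sham points, Hist2h2aa1 has them below, and the groups overlap at the other 9 probes.

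Probes whose names fell outside the rule but that share at least 20 bases with a probe chosen by it gave a like mixture. MGC73635, which shares a run of 28 bases, had levels of 3.90, 3.96 and 4.21 in ADX hearts and 3.43, 3.63 and 3.44 in sham hearts, a difference of 0.52 (SE 0.13, limma adjusted p = 0.197). H2afj, a replacement H2a with a shared run of 29 bases, differed by -0.11 (limma adjusted p = 0.740). A probe named for the transcript ENSMUST00000090782, with a shared run of 51 bases, differed by -0.10 (limma adjusted p = 0.721).

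Replacement histone genes showed no difference past the test. Of 13 listed, 12 were tested, with a median of 0.01. At an unadjusted p under 0.05 there were 0 in either direction, where 13.5% of all tested probes were at that level. Above 0 were 6 and below 0 were 6, where 55.1% of all tested probes were above 0. The 2 of smallest p were Macroh2a1, an H2a variant with a large extra domain, at -0.16 (SE 0.10, limma adjusted p = 0.527), and Macroh2a2, its relative, at -0.69 (SE 0.50, limma adjusted p = 0.578). Macroh2a2 had levels of -3.82, -3.39 and -3.75 in ADX hearts and -1.73, -3.28 and -3.87 in sham hearts, so sham replicate 1 alone carried that value.

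Genes that make, process and carry histones had no member past the test. Of 13 genes of histone mRNA synthesis and processing, 12 were tested, none passed in limma after adjustment, and the median was 0.12. At an unadjusted p under 0.05, 1 was higher and 1 lower, where 6.11% of all tested probes were higher and 7.39% lower. At that unadjusted p were Cstf2, a subunit of the cleavage stimulation factor, at 0.27 (SE 0.10, limma adjusted p = 0.331) and Cpsf2, a subunit of the cleavage complex, at -0.32 (SE 0.13, limma adjusted p = 0.337). Slbp, which binds the stem-loop, differed by 0.15. Of the 12 tested, 8 were above 0, and the groups did not overlap at 5 with ADX above and at 1 with ADX below. Over all tested probes 55.1% were above 0, and 10.2% and 9.35% separated in those directions. Of 14 chaperones and carriers, all tested, 1 was higher and 1 lower at an unadjusted p under 0.05. None of the 14 passed after adjustment, 6 were above 0, and the median was -0.03. Asf1b, a carrier of H3 and H4 in dividing cells, had levels of -0.82, -0.80 and -0.99 in ADX hearts against -1.48, -1.39 and -1.29 in sham hearts, without overlap (0.52, SE 0.11, limma adjusted p = 0.169). Atrx, which works with Daxx in placing a replacement H3, differed by -0.39 (SE 0.13, limma adjusted p = 0.269).

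Genes of S phase and DNA replication, the phase in which these histones are made, leaned to the higher side in ADX hearts without passing the test. Of 30 genes on the array 29 were tested, and all 29 were above 0, against 55.1% of all tested probes. At an unadjusted p under 0.05, 18 were higher and 0 lower, where 6.11% of all tested probes were higher and 7.39% lower. ADX lay above sham without overlap at 20, where 10.2% of all tested probes did so. The median of the 29 was 0.37, against 0.03 over all tested probes and -0.02 for the histone probes. None of the 29 passed after adjustment over all probes. E2f1, which switches on genes needed for S phase, had levels of -2.92, -3.26 and -2.93 in ADX hearts and -4.37, -4.26 and -4.37 in sham hearts, with 2 of the 3 sham arrays above background (1.29, SE 0.13, limma adjusted p = 0.0683). Ccna2, the cyclin of S phase and of entry into mitosis, differed by 1.04 (SE 0.12, limma adjusted p = 0.0809). E2f1 entered the test through the ADX arrays, where it was high. Its difference is therefore less comparable with those of genes above background throughout, yet the counts and the median above include it. Over probes above background on all arrays, which leaves E2f1 out, 28 genes of this list were tested and all 28 were above 0. Of these, 17 were higher and 0 lower at an unadjusted p under 0.05, and their median was 0.36. Whether any S phase gene passed depended on the setting. E2f1 did with 1 probe a gene name (0.0422% of all tested probes passed) and Ccna2 with a variance trend (0.0625%). So did 4 genes with array weights (0.696% of all tested probes) and 2 at an adjusted p under 0.10 (0.171%). Under normexp on the local background 8 were higher and 4 lower past the threshold, where 40.4% of all tested probes passed. Above 0 were 17 of 29 under normexp and 25 of 29 without sham replicate 3. The gap between this list and the histone probes was not tested.

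**Figure D4:**
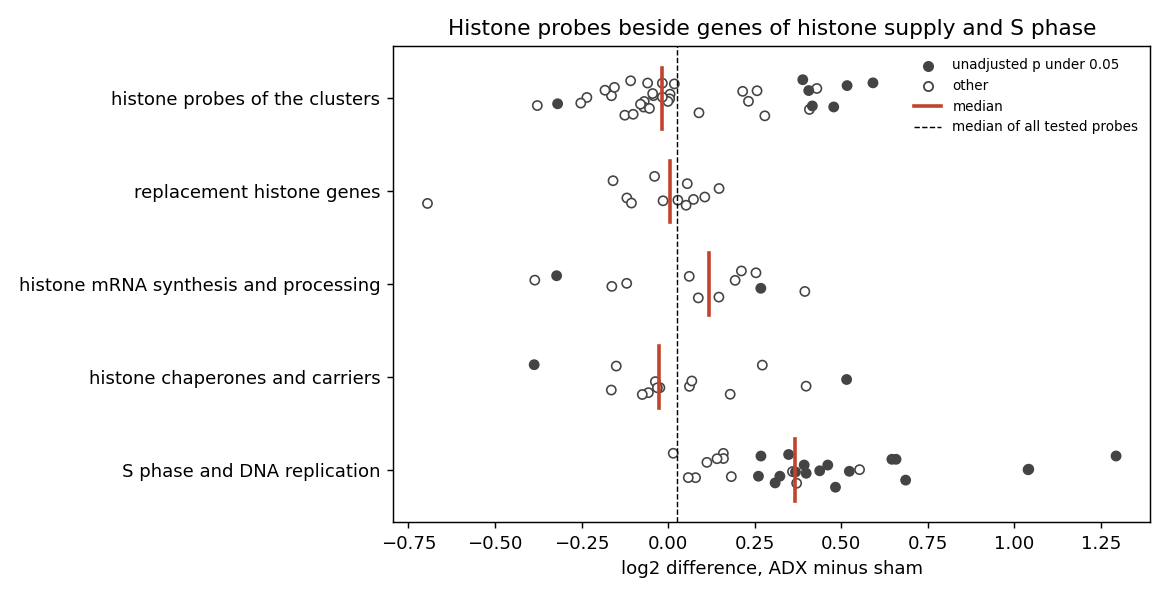
Log2 difference (ADX minus sham, horizontal axis) of each tested histone probe and of the genes of 4 lists, 1 probe a gene, with filled points at an unadjusted limma p under 0.05, a bar at each median and a dashed line at the median of all tested probes (0.03). Histone probes centre on -0.02 and the S phase list on 0.37, with all 29 of its genes above 0.

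Markers of other cells moved unevenly over the arrays, and none passed the test in limma after adjustment. Summed signals are given as multiples of the array's 75th percentile. The 3 of 5 B-cell markers that were tested (Cd79a and Pax5 did not clear background on every array of a group) summed to 1.29, 3.75 and 1.93 on the ADX arrays and 0.892, 1.75 and 1.28 on the sham arrays, highest on ADX replicate 2. The 5 of 6 T-cell markers (without Cd8a, for the same reason) summed to 0.591 to 0.831 in ADX hearts and 0.457 to 0.663 in sham hearts. The 5 of 6 adipocyte markers (without Lep) summed to 335, 545 and 485 in ADX hearts and 294, 371 and 266 in sham hearts. Most of each sum came from Fabp4, whose difference of 0.30 was the smallest of the 5, while the largest was 2.88. The median difference of the 5 markers was 1.79, against 1.11 without sham replicate 1 and 0.49 within slide 1. Macrophage, fibroblast and endothelial markers, 5 of 5 tested in each list, had medians of -0.11, -0.20 and -0.26. The median of the 7 cardiomyocyte markers was below 0 too, at -0.16. For 5 tested red cell markers the sums were 1707, 1719 and 758 in ADX hearts and 1333, 962 and 1079 in sham hearts, highest on ADX replicates 1 and 2 and lowest on ADX replicate 3. Most of each sum came from the globin genes Hba-a1 and Hbb-b1. A further, dim red cell marker entered the test through the ADX arrays alone. What part these cell types had in the histone and S phase values was not tested.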

How the data were processed

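Heart RNA was amplified and labelled with Cy3, per the labels' protocols, and scans were read with Agilent Feature Extraction 9.5, per the submitters' processing notes. Processed signals were deposited as linear intensity values that the authors' scanner software had corrected for background and spatial trend on each array, per the file headers, with no normalization between arrays. Intensities in the deposited value table equalled them at all 45018 spots of each array.

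Log2 signals minus each array's 75th percentile were used. Control spots were dropped, as were 80 to 133 outlier spots per array, and repeat spots were averaged. The 23993 probes that cleared background on the 3 arrays of either group were fitted with limma 3.58.1 (R 4.3.3), p-values were adjusted over them by the Benjamini-Hochberg method, and the fit was tested on simulated data. Python 3.11.15 was used otherwise. Symbols were updated for 36 of the 44 histone probes through RefSeq, array names were kept in the text for them, and the lists were matched by old and new symbols.

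The histone probes and lists were chosen with earlier results of these data known. Named were, in each class, the 2 tested probes of smallest p, the one of highest signal and any with a bound above 1, and from each list of related genes the 2 of smallest p. Other members, Slbp and the probes sharing sequence were named after their values were seen. Same-numbered ADX and sham arrays deviated together at r of 0.14, 0.14 and -0.20, and unlike-numbered ones at -0.32 to 0.21. These values do not settle whether replicate numbers pair the samples, and the main fit used no pairing. There were 21 alternatives, covering normalization, background correction, the value table, filters, 1 probe a gene, outlier spots, slide, replicate block, variance model, array weights, threshold and each array left out. One gene of a marker list is not reported here.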

Additional observations from a re-analysis of the deposited data

How the results depend on the processing

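No histone probe passed under 20 of the 21 alternatives. The exception was normexp on the local background, where 12 passed (6 higher, 6 lower) amid 1597 higher and 8106 lower of all probes, 40.4%, against 0 higher and 1 lower as reported. There, 14 histone probes (38.9%) were at an unadjusted p under 0.05, against 51.7% of all tested probes. Medians were 0.21 for all histone probes, -0.81 for H1, 0.14 for H2a, 0.54 for H2b, 0.25 for H3 and 0.20 for H4. For the lists they were 0.25 for replacement histones, -0.13 for processing, 0.15 for chaperones and 0.10 for S phase. Normexp also turned Hist1h1b to -0.45, Hist1h1c to 0.32, Hist1h2af (A_52_P165633) to 0.27 and Hist1h2bc to 0.35. Hist1h3d turned to 0.21, Hist2h3c1 to 0.28 and Hist1h4f to 0.33. Hist1h1d (A_51_P501260) turned to -1.04, past the threshold on the lower side (limma adjusted p = 0.0211). Past it on the higher side came Hist1h2af (A_52_P498210) at 0.47, Hist1h2bk at 0.59 and Hist1h2ba at 0.62. The normexp median over all probes was -0.18, against 0.03. The cause was not tested. Slide as a fixed block gave 0.47 for H2b, 0.085 for Hist1h2bc and 0.079 for Hist1h4f. Median centring gave 0.082 for processing and 0.33 for S phase, and array weights gave 0.33 for S phase and -0.085 for all histone probes. With each array left out in turn, 3 to 8 histone probes were at an unadjusted p under 0.05, against 7 with all arrays. It was 3 (8.33%) without sham replicate 1 or 2, where 9.31% and 9.16% of all tested probes were at that level. Without ADX replicate 2 it was 4 (11.1%), against 10.7%, and without ADX replicate 3 it was 8 (22.2%), against 14.9%. Over those fits medians ran from 0.091 to 0.15 for processing, 0.33 to 0.42 for S phase and -0.12 to 0.062 for replacement histones, and differences from -0.057 to 0.0064 for Hist1h1c, -0.054 to 0.037 for Hist1h2bc, -0.14 to 0.012 for Hist2h3c1 and -0.11 to 0.0056 for Hist1h4f. The replicate block gave 0 histone probes past the threshold and a smallest limma adjusted p of 0.298. It put 7 higher and 1 lower at an unadjusted p under 0.05 (22.2%), against 11.8% of all tested probes. Counts over all probes were 5 higher and 2 lower with 1 probe a gene name, 8 and 7 with a variance trend, 64 and 103 with array weights, 28 and 13 at an adjusted p under 0.10, 53 and 3 without ADX replicate 1, 3 and 1 without ADX replicate 3 and 0 and 6 without sham replicate 2. Histone probes near background, such as those of Hist1h1d, are limited by signal over background.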
